A study of Homo sapiens with 6 samples.

Results

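The cytosolic ribosomal protein genes were examined in 6 Affymetrix U133 Plus 2.0 arrays of the human ovarian carcinoma lines Caov-3 and SKOV-3. A gene was a member if its symbol in the array's annotation began with RPL or RPS and a digit, or was RPLP0, RPLP1, RPLP2 or RPSA. S6 kinase genes (RPS6K) and names ending in P and digits, the form used for pseudogenes, were left out. Among 19775 genes with a probe set of 1 symbol, 63 were members. They comprised 30 proteins of the large subunit, 20 of the small subunit, 2 of the P stalk, 9 paralogues of another ribosomal protein gene and 2 non-coding transcripts named after a member. A gene was tested if its value reached the array's median on at least 2 of the 6 arrays, and 60 members passed, among 12290 genes in all. RPL3L, RPS4Y1 and RPL34-DT did not pass. RPLP0 and RPSA were not analysed here, and 18 further symbols, including RPL4, RPL5, RPL10, RPL13A and RPS2, were named only on probe sets shared by several symbols and were given no value.

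Each line was given siltuximab (CNTO328, an antibody against interleukin-6) for 4 h and then interleukin-6 (IL-6) at 30 ng/ml for 1 h, or IL-6 alone at the same dose and time, or neither. IL-6 signals through gp130 and STAT3, and the study asked how the antibody altered expression induced by the cytokine. A group was a single array of pooled RNA, from 3 flasks, so folds within a line have no replicate check and the number of arrays limits the precision. The labels used here state no siltuximab dose, and cells given only the antibody were not analysed here.

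Ribosomal proteins assemble with ribosomal RNA into a small subunit, which reads the mRNA, and a large subunit, which joins amino acids. Their mRNAs are among the most abundant of a growing cell. Most begin with a cytosine and a run of pyrimidines, the terminal oligopyrimidine (TOP) motif, through which mTORC1 and LARP1 control their translation together. RNA polymerase I and a large set of assembly factors supply and fold the ribosomal RNA, and MYC is a known activator of both. A few ribosomal proteins have paralogues, some of them best known from the testis or from muscle, that can take the place of the common form.

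The TOP motif is the sequence feature by which this class is known, so the windows around the start of the members on which the results turn are shown first, from the RefSeq promoter table of build GRCh38.p14. Each runs 5′ to 3′ on the gene's own strand, with 20 bases before the annotated start and 10 bases from it. Capitals mark the longest pyrimidine run that reaches to within about 5 bases of the start.
RPS6, chr9:19380227-19380256, minus strand: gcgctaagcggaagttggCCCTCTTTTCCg
RPL34, chr4:108620556-108620585, plus strand: ctggcaaaggCTTTTTTCTTCCTCTTCCgg
RPL3, chr22:39319614-39319643, minus strand: gacccgtaaggccgaccggCCTCTaccggc
RPLP1, chr15:69452798-69452827, plus strand: gctgcgtataggcgcgagagCCCCTTTCCT
RPL22, chr1:6199586-6199615, minus strand: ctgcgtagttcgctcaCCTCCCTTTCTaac
RPL22L1, chr3:170870186-170870215, minus strand: gaccgcgcggccgtagCTTCCTCTCTgctc
RPL36A, chrX:101390991-101391020, plus strand: ttccgtttgcctcgcggTTTCTTTCTTTCC
RPL36AL, chr14:49620617-49620646, minus strand: tccgcctgTTTCTTCCCTTTCCTgttaggc
RPS27, chr1:153990742-153990771, plus strand: gcaggatttccgctttcgCTCCTTTCCggc
RPS27L, chr15:63157468-63157497, minus strand: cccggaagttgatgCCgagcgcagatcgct
RPS27L has the short run CC where RPS27 has a longer one, whereas RPL22L1 and RPL36AL carry runs of 10 and 15 bases beside those of 11 and 13 bases in RPL22 and RPL36A.

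A promoter window was matched for 53 of the 60 tested members. A C followed by at least 4 pyrimidines, beginning within 5 bases of the annotated start on the gene's strand, was found for 40 of 46 subunit and P stalk proteins (87.0%). The same letters were found for 2 of 6 paralogues (33.3%), RPL22L1 and RPL36AL, and for 21.5% of 10041 genes past the filter and 19.6% of 27305 promoters in the table. The longest pyrimidine run reaching to within about 5 bases of the start had a median of 11 bases in the subunit and P stalk proteins. It was 2 bases in the paralogues, against 4 bases over all promoters. In the 300 bases from 250 before the start to 50 after it, on both strands, CCGGAAG, a form of the ETS site, was found for 17 of 46 (37.0%), against 19.1% of the genes past the filter and 10.7% of all promoters. TATAAA was found for 3 (6.52%, against 5.62% and 12.0%) and AAGATGG, a form of the YY1 site, for 5 (10.9%, against 7.49% and 6.06%). TTCNNNGAA, the core letters of a STAT site, was found in 0 of the 46 windows, against 6.26% of the genes past the filter and 7.88% of all promoters. These are matches of letters in a window and not binding sites, and the annotated start may differ from the start used in these lines.

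The labels were checked before the comparisons. Epithelial markers separated the lines: EPCAM gave signals of 22113 to 23634 on the Caov-3 arrays and 1728 to 2223 on the arrays labelled SKOV-3, and CDH1 gave 4763 to 5094 and 11.0 to 27.5. KRT19 gave 7263 to 7936 and 4.37 to 57.9 in the same order, whereas KRT8 and KRT18 were bright on all arrays. ERBB2, for whose amplification SKOV-3 is widely known, gave 1017 to 1243 on the Caov-3 arrays and only 580 to 733 on the arrays labelled SKOV-3. This goes against the label, so every direction below is that of the arrays labelled Caov-3 and SKOV-3. The summed signal of 8 epithelial markers was 84372 to 87196 in Caov-3 and 43109 to 51063 in SKOV-3. That of 8 fibroblast and endothelial markers, 2 of which passed the filter, was 4911 to 5874 in Caov-3 and 541 to 720 in SKOV-3. Most of the Caov-3 sum was COL1A1, and PECAM1 was also higher there, at 331 to 1162 against 125 to 176 in SKOV-3. The summed signal of 5 leukocyte markers was 884 to 970.1 in Caov-3 and 367 to 740.02 in SKOV-3. Among these, PTPRC was at or below 35.1 on every array, whereas CD14 gave 573 to 667 in Caov-3 and 77.6 to 135 in SKOV-3. The part of these markers in the line differences was not tested. In such bulk RNA, fewer cells that express a gene and less RNA per cell cannot be told apart. RPS6, a marker of the class, was bright on all 6 arrays.

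The members were among the brightest probe sets of the arrays. The signal is the deposited MAS5 intensity on a linear scale, which depends on the probes as well as on the transcript, so levels of different genes are not ranked here. Mean signals lay above 10000 for 51 of the 60 members, with a median of 29041 and quartiles of 22716 and 37305. Together the members held 3.51% to 4.07% of the summed signal of an array. Below that lay the paralogues RPL22L1, RPL26L1, RPS27L, RPL39L and RPL10L, and the antisense transcript RPL26L1-AS1. The others below it were RPLP2 at 158 to 239, RPL36A at 112 to 198 and RPL27A at 812 to 1057 over the 6 arrays, whose brighter probe sets name several symbols. Of the 63 probe sets that stand for the members, 44 end in _x_at or _s_at, the array's mark for probes that can also match other transcripts. Processed pseudogenes and paralogues can therefore share part of these signals.

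Between the lines, most ribosomal protein genes differed little. The line difference is the mean of log2(signal + 17.06) in Caov-3 minus that in SKOV-3 with treatment as a block, 3 arrays a line, tested with limma. At a Benjamini-Hochberg adjusted p under 0.05, 13 of 60 members were higher in Caov-3 and 18 lower, 31 in all (51.7%), where the background was 70.8% of 12290 genes, 38.6% higher and 32.3% lower. The members' median difference was 0.03, against 0.07 over all genes, and it lay at -0.02 under quantile normalization and -0.01 under cyclic loess. Without the probe sets marked _x_at or _s_at, where fewer remained, the members' median was -0.31, against 0.05 over all genes. As reported, the members' spread was narrow, with a robust SD of 0.27 against 1.02 for all genes. The 3 arrays of a line lay wholly above or below those of the other for 24 members (40.0%), against 74.1% of all genes. At an unadjusted p under 0.05 the fit gave 33 members, against 73.1% of all genes. The 3 arrays of a line were 3 treatments, not replicates. With treatment in the fit, the p-values set the line difference against how far treatment effects differed between the lines.

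The split of higher and lower calls depended on the scaling. It was 10 higher and 24 lower under quantile normalization, and 25 higher and 15 lower with each array centred on the median of its members. Of the 31 called members, 25 were also called under quantile normalization, cyclic loess and this centring. Without either siltuximab plus IL-6 array the number called higher was 5. The 48 other genes with a mean signal between the quartiles of the members had 25 higher and 9 lower, a median difference of 0.17 and a robust SD of 0.38. Both classes of bright genes thus had narrower differences than all genes.

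**Figure D1:**
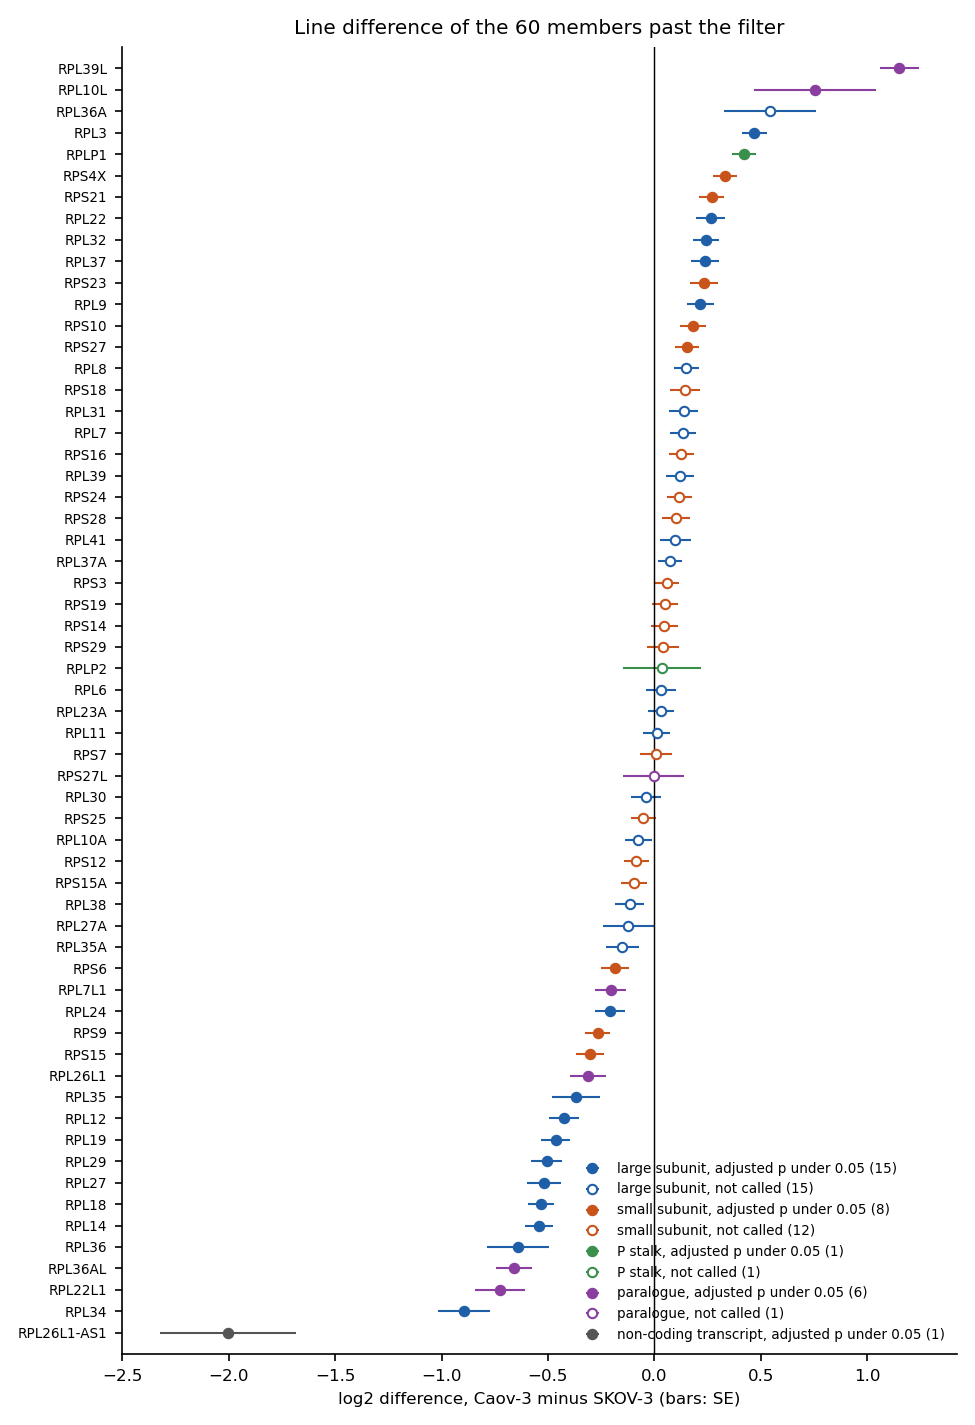
The log2 difference between the lines (Caov-3 minus SKOV-3, horizontal axis, bars are the SE of the fit over 6 arrays) is drawn for each of the 60 tested members, with filled points for an adjusted p under 0.05 and colours for the kind of protein. Most points lie near 0, with RPL39L at 1.15 on the high side and RPL34 at -0.89 on the low side, beyond which lies the dim RPL26L1-AS1.

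Among the 30 large subunit proteins 5 were higher in Caov-3 and 10 lower, with a median difference of -0.01 that is 0 within the spread. RPL34 gave signals of 12382 with siltuximab plus IL-6, 17482 with IL-6 and 16658 untreated in Caov-3. In SKOV-3 it gave 27101, 24772 and 34483 under the same treatments. All 3 Caov-3 arrays lay below all 3 SKOV-3 arrays, with a log2 difference of -0.89 (SE 0.12, limma adjusted p = 4.70e-04), a 1.86-fold lower signal.

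RPL36 gave 8036 with siltuximab plus IL-6, 10116 with IL-6 and 7398 untreated in Caov-3, against 14663, 11281 and 13823 in SKOV-3. The lines did not overlap, with the IL-6 arrays closest to each other, and the log2 difference was -0.64 (SE 0.14, limma adjusted p = 0.00579). Without either untreated array it was -0.51 and no longer called. RPL14 gave 12285, 11747 and 13738 in Caov-3 and 18156, 18031 and 18774 in SKOV-3, in the order siltuximab plus IL-6, IL-6, untreated. On this chosen probe set the arrays varied little within a line, and the log2 difference was -0.54 (SE 0.07, limma adjusted p = 2.66e-04). Another bright probe set of RPL14 varied more in Caov-3, at 10097.5, 7334 and 11957 in the same order, with a line difference of -0.77.

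RPL18 and RPL27, mutated in some families with Diamond-Blackfan anaemia, differed by -0.53 and -0.52. RPL29, known also as a heparin-binding protein, differed by -0.51, RPL19 by -0.46 and RPL12, which lies at the base of the P stalk, by -0.42. Each of these 5 genes was lower on every Caov-3 array than on any SKOV-3 array. RPL27, for example, gave 28821, 29412 and 27717 in Caov-3, against 37492, 40000.4 and 46078 in SKOV-3. RPL35 (-0.37) and RPL24 (-0.21) completed the large subunit proteins called lower, and the lines overlapped for RPL24.

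RPL3, a core protein near the peptidyl transferase centre, went the other way. It gave 31857 with siltuximab plus IL-6, 31626 with IL-6 and 39612 untreated in Caov-3, against 23019, 22022 and 29690.3 in SKOV-3. Every Caov-3 array lay above every SKOV-3 array, with a log2 difference of 0.47 (SE 0.06, limma adjusted p = 3.37e-04). The other large subunit proteins called higher were RPL22 (0.26), RPL32 (0.24), RPL37 (0.24) and RPL9 (0.22). RPL11, which with RPL5 binds and inhibits the p53 regulator MDM2, differed by 0.01 and was not called.

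RPL22 is shown with its probe sets because they disagreed. The chosen probe set gave 29521, 30200.6 and 31636 in Caov-3 and 23793, 23725 and 28788 in SKOV-3 with siltuximab plus IL-6, IL-6 and no treatment. Its 3 probe sets marked _x_at differed by 0.26 to 0.30 on the log2 scale, the one marked _s_at by -0.11 and the unmarked one by -0.55. The direction of RPL22 between the lines thus depended on the probe set. Over 19 members with several probe sets above a mean signal of 1000, 15 had the same sign of the line difference in all of them, with a median range of 0.07. The exceptions were RPL22, RPS24, RPS19 and RPS7. RPL31 kept its sign but not its size: its chosen probe set differed by 0.14, and 2 others, with mean signals of 1976 and 1260.4, by 0.79 and 4.36.

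Small subunit proteins had a narrower spread than the large subunit ones. Of 20, 5 were higher in Caov-3 and 3 lower, with a median difference of 0.05 and a robust SD of 0.15, against 0.32 in the large subunit. RPS4X, an X-linked protein with a copy on the Y chromosome, gave 38706 with siltuximab plus IL-6, 38669 with IL-6 and 44779 untreated in Caov-3, against 30595, 30601 and 35847 in SKOV-3. It was higher on every Caov-3 array, with a log2 difference of 0.33 (SE 0.06, limma adjusted p = 0.00144). RPS21 (0.27), RPS23 (0.23), which lies at the decoding centre, RPS10 (0.18) and RPS27 (0.15) were also called higher. RPS27 and RPS23 turned to -0.24 and -0.54 when all probe sets of a gene were averaged, as their dim second probe sets were at -0.63 and -1.31. RPS27 was also not called under quantile normalization (0.07, limma adjusted p = 0.194) or cyclic loess (0.10, limma adjusted p = 0.183).

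RPS6, the protein phosphorylated by the S6 kinases, gave 28065 with siltuximab plus IL-6, 30558 with IL-6 and 31057 untreated in Caov-3, against 32744, 31995 and 37530.1 in SKOV-3. The lines did not overlap, but by a small margin, and the log2 difference was -0.19 (SE 0.07, limma adjusted p = 0.0370). It was -0.11 and not called with the arrays centred on the members. RPS15 (-0.30) and RPS9 (-0.27) were the other small subunit proteins called lower. RPS3, near the mRNA entry channel, and RPS19, the gene first tied to Diamond-Blackfan anaemia, differed by 0.06 and 0.05 and were not called.

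Of the P stalk proteins, which bind the elongation factors, RPLP1 gave 43769, 42626 and 50740.0 in Caov-3 and 32160, 32962 and 37139 in SKOV-3 with siltuximab plus IL-6, IL-6 and no treatment. All Caov-3 arrays were higher, with a log2 difference of 0.42 (SE 0.06, limma adjusted p = 4.86e-04). RPLP2, read only from a dim probe set, differed by 0.04 and was not called. The 29 members not called differed by -0.15 to 0.15, apart from RPL36A at 0.54 (limma adjusted p = 0.0563). Among them were RPS16 and RPL7, named for their bright probe sets, each at 0.13.

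The paralogues had larger line differences than the common forms. Of 7 tested, 2 were higher in Caov-3 and 4 lower (85.7% called, beside the background of 70.8%), with a median size of the difference of 0.66, against 0.15 for the subunit and P stalk proteins and 0.68 for all genes. RPL39L, a paralogue of the exit tunnel protein RPL39 best known from the testis, gave 3085 with siltuximab plus IL-6, 3728 with IL-6 and 3231 untreated in Caov-3, against 1541, 1507 and 1434 in SKOV-3. It was higher on every Caov-3 array, with a log2 difference of 1.15 (SE 0.09, limma adjusted p = 3.49e-05), a 2.22-fold higher signal. RPL39 itself differed by 0.12 and was not called.

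RPL22L1, the paralogue of RPL22, gave 4904 with siltuximab plus IL-6, 6692 with IL-6 and 4713 untreated in Caov-3, against 9282, 8640.0 and 8735 in SKOV-3. It was lower on every Caov-3 array, with a log2 difference of -0.72 (SE 0.12, limma adjusted p = 0.00110). In mice RPL22 protein is known to repress the mRNA of this paralogue. RPL36AL, an intronless paralogue of RPL36A, gave 8026, 9298 and 7484 in Caov-3 against 12560.0, 12956 and 13547 in SKOV-3, a log2 difference of -0.66 (SE 0.09, limma adjusted p = 3.82e-04).

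RPL26L1 (-0.31) and RPL7L1 (-0.21) were called lower by smaller sizes. RPS27L, a known target of p53, overlapped between the lines and differed by -0.00. RPL10L, best known from the testis, was called higher at 0.75 (SE 0.29, limma adjusted p = 0.0485), but from signals of 159, 138 and 67.3 in Caov-3 and 61.1, 105 and 33.4 in SKOV-3, which overlapped. That call was lost under quantile normalization (limma adjusted p = 0.0518) and with a pseudocount of 1 (limma adjusted p = 0.0704), and the difference was 0.39 with a pseudocount of 111. RPL26L1-AS1 was dim on every array, at 40.9, 9.51 and 41.6 in Caov-3 and 176, 146 and 168 in SKOV-3. It was called lower, but its Caov-3 values all lay under their arrays' medians, and the size of the log2 difference followed the pseudocount, at -2.63 with a pseudocount of 1 and -0.96 with one of 111.

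**Figure D2:**
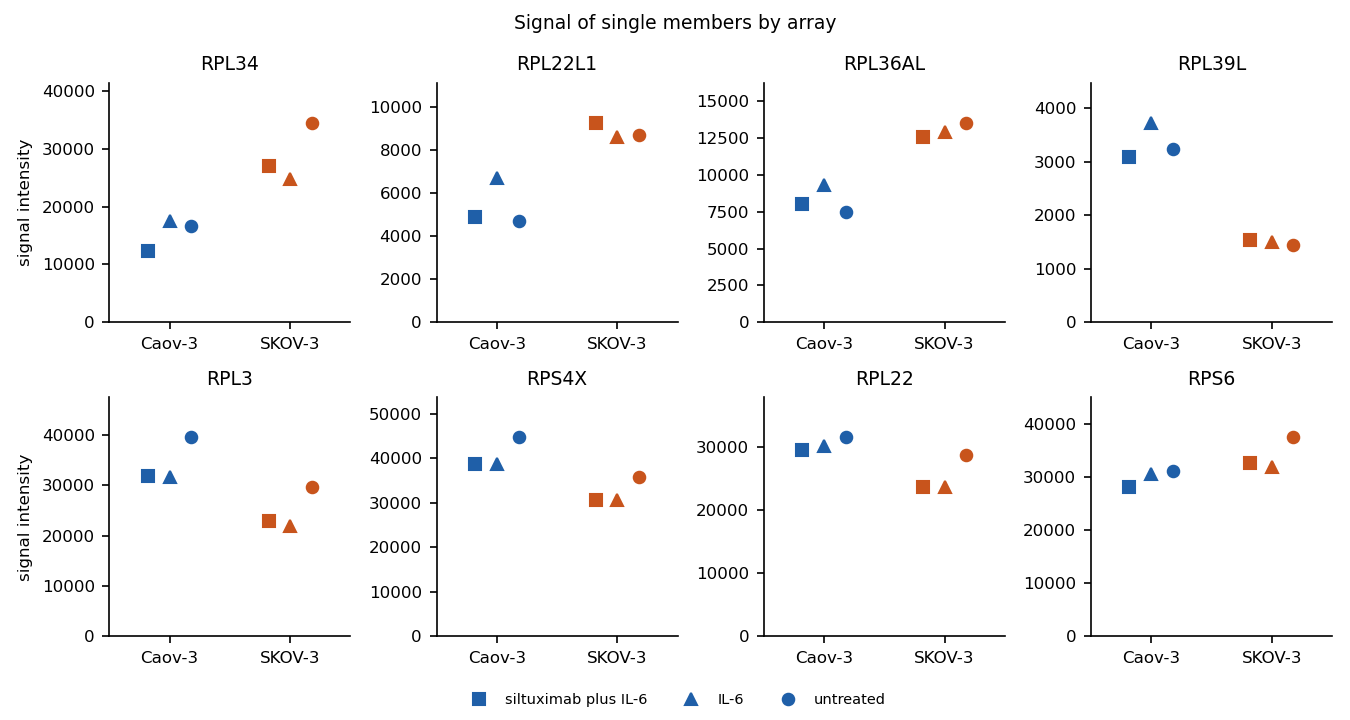
Signal intensity (linear vertical axis from 0) is drawn for 8 members, with 1 point per array, Caov-3 at the left and SKOV-3 at the right of each panel and the marker shape for the treatment. The points of the lines do not overlap in any of the 8 panels, with RPL39L, RPL3, RPS4X and RPL22 higher in Caov-3 and RPL34, RPL22L1, RPL36AL and RPS6 lower. The 8 were picked for display. Of all 60 members the lines did not overlap for 24 (40.0%), against 74.1% of all genes. RPL22 is drawn from its chosen probe set, and other probe sets of it differed by -0.11 and -0.55.

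The genes that make ribosomes had larger line differences than the ribosomal proteins themselves. Bright genes outside the members also differed little, with a robust SD of 0.38 against 1.02 for all genes. The part of signal level in this contrast, and in that of the paralogues, was not tested. Of 40 listed ribosome biogenesis factors 34 passed the filter, and 32 were lower in Caov-3 and 1 higher, with a median log2 difference of -1.41. RRP9, a component of the U3 snoRNP that guides cleavage of pre-rRNA, gave 196, 191 and 186 in Caov-3 and 1170.3, 920.5 and 945 in SKOV-3 with siltuximab plus IL-6, IL-6 and no treatment, a log2 difference of -2.30 (SE 0.14, limma adjusted p = 9.22e-06). RRS1, known from yeast to help bring the 5S RNP into the large subunit, differed by -2.11, and NOP10, of the H/ACA snoRNPs, was the one called higher, at 0.34. Of 13 genes of RNA polymerase I and its factors, 12 were lower and 0 higher, with a median of -0.64. The polymerase subunits POLR1G and POLR1E differed by -2.99 and -2.76.

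Among the regulators, MYC gave 933, 884 and 959 in Caov-3 against 18957, 19094 and 22053 in SKOV-3 with siltuximab plus IL-6, IL-6 and no treatment, a log2 difference of -4.41 (SE 0.08, limma adjusted p = 1.28e-07). Of 14 genes of the mTORC1 and S6 kinase pathway, with MYC listed among them, 6 were lower and 4 higher. AKT1S1, an inhibitory subunit of mTORC1, differed by -2.13. DDIT4, an inhibitor of the pathway, differed by 1.40 and AKT1 by 1.24. The lists and the members were described by their counts and medians beside those of all genes (38.6% higher, 32.3% lower, median 0.07), and no test between lists was made.

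Of 30 listed translation initiation factors 28 passed, and 17 were lower and 5 higher, with a median of -0.39. EIF6, which keeps the subunits apart until the large one is mature, differed by -2.40 and EIF3B by -2.15, while EIF5A differed by 2.18 and EIF4EBP2, a repressor of the cap-binding factor, by 1.92. Of 12 elongation factors and other genes with TOP mRNAs, 5 were lower and 2 higher. TPT1, an abundant TOP mRNA, was called higher at 0.20 and HNRNPA1 at 0.42, whereas GAS5, a non-coding TOP transcript, differed by -1.77 and VIM, a mesenchymal filament gene, by -7.34. FAU, whose product is cut into a ubiquitin-like protein and a small subunit protein, was called higher at 0.22. Mitochondrial ribosomal proteins, which serve a separate ribosome, had 33 lower and 19 higher of 75, with a median of -0.13 and a robust SD of 0.73.

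Ribosomal proteins listed for binding MDM2 or for Diamond-Blackfan anaemia followed no common direction. Of 15 listed as binders of MDM2, 9 passed, with RPS15 lower and RPL37 and RPS27 higher. Of 19 listed as mutated in Diamond-Blackfan anaemia, 14 passed, with 3 lower and 2 higher. Of 11 reference genes often used to scale expression, 2 were lower, YWHAZ at -0.88 and TBP at -0.52, and 6 higher. GUSB at 1.14 and SDHA at 1.12 were among the higher ones. The shares called in these lists were 33.3%, 35.7% and 72.7% in that order, against 51.7% of the members and 70.8% of 12290 genes.

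**Figure D3:**
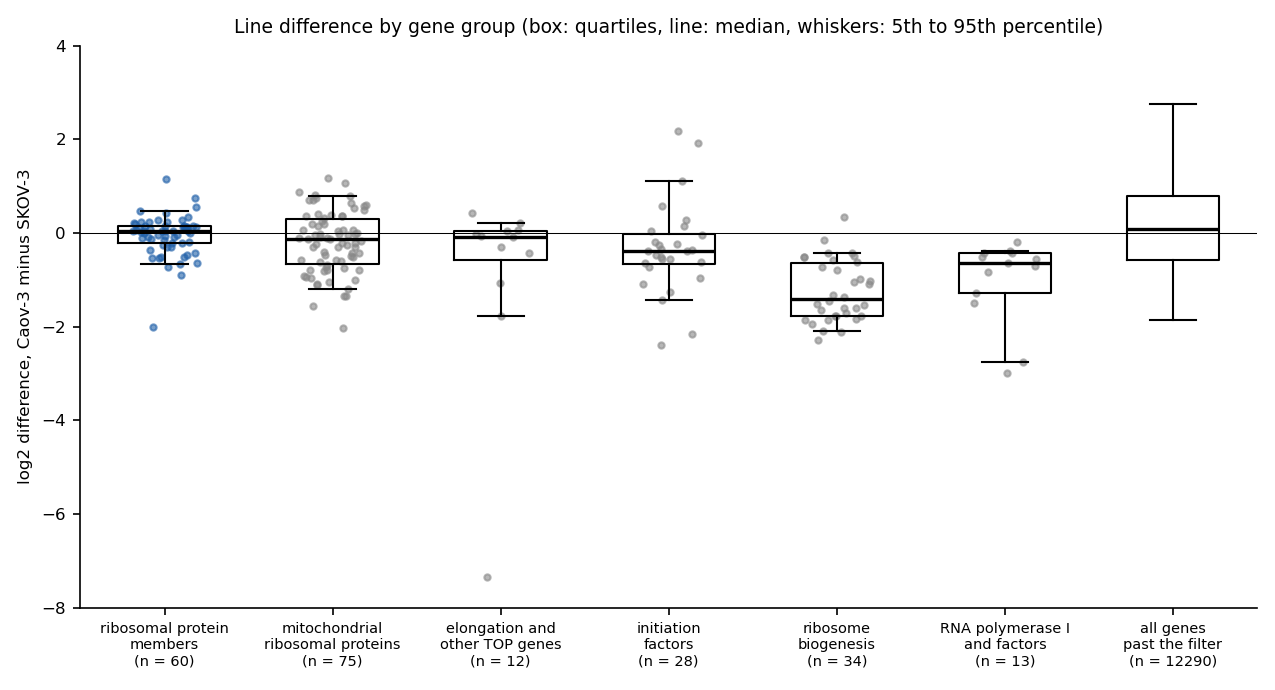
The log2 difference between the lines (Caov-3 minus SKOV-3, vertical axis) is drawn as 1 point per gene for the ribosomal protein members and 5 lists, with boxes for the quartiles, a line for the median and whiskers for the 5th to 95th percentile, beside a box for all 12290 genes. The members lie in a narrow band around 0, while the biogenesis factors are centred at -1.41.

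For the treatments, the design gave 1 array per group, so the test took both lines together with the line as a factor. At an adjusted p under 0.05, limma called 0 members and 0% of 12290 genes for IL-6 over untreated, for siltuximab plus IL-6 over IL-6 and for siltuximab plus IL-6 over untreated. At an unadjusted p under 0.05 it gave 28, 0 and 31 of the 60 members, where the background was 9.62%, 3.24% and 5.74% of all genes. It also gave 23, 0 and 21 of the 48 other genes of like signal, so these counts were not particular to the members. The members' lowest limma adjusted p was 0.322 for IL-6, 0.983 for siltuximab plus IL-6 over IL-6 and 0.717 for siltuximab plus IL-6 over untreated. Without the SKOV-3 IL-6 array, where IL-6 rests on Caov-3 alone, limma called RPL22L1 (0.51, adjusted p = 0.0255) and RPL36 (0.44, adjusted p = 0.0381) for IL-6, and RPL34 (-0.48, adjusted p = 0.0476) for siltuximab plus IL-6 over IL-6. The same fits called 3.71% and 1.70% of 12159 genes, which is near the members' shares. The 3 comparisons share arrays, so their values are set side by side and not as separate evidence. The members' median log2 differences were -0.18, -0.03 and -0.19 in that order, against 0.00, -0.03 and -0.02 for all genes.

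The untreated arrays thus gave the higher signals for most members, by a small amount. In Caov-3 the IL-6 array was below the untreated one for 43 of 60 members, where the background was 40% of all genes, and the median log2 fold was -0.11. In SKOV-3 it was below for 54 of 60, where the background was 57%, and the median was -0.26. It was below in both lines for 43 members (71.7%), against 24.9% of all genes. The untreated array was the highest of its line for 41 members in Caov-3 (background 28.7%) and for 51 in SKOV-3 (background 43.1%). At least 1.2-fold lower with IL-6 were 9 members in Caov-3, against 15.7% of all genes, and 29 in SKOV-3, against 20.4%.

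Equally bright genes outside the member rule gave folds of like size. They can include other genes of translation, such as FAU. The 48 other genes with a signal between the members' quartiles had median folds with IL-6 of -0.15 in Caov-3 and -0.24 in SKOV-3, and 43 of them (89.6%) were lower in both lines. The top of the signal scale moved likewise: the 99.9th percentile of an array was 40362 with siltuximab plus IL-6, 39141 with IL-6 and 45164 untreated in Caov-3, and 36057, 37727 and 45026 in SKOV-3. The 5' over 3' ratio of the ACTB control probe sets, a sign of RNA integrity, was 0.494 for IL-6 in Caov-3 and ran over 0.643 to 0.767 on the other 5 arrays. After quantile normalization, which gives every array the same distribution, the members' median difference over both lines was 0.03 for IL-6 and 0.01 for siltuximab plus IL-6 over untreated, and for IL-6 in Caov-3 alone it was 0.07. Under cyclic loess the differences over both lines were -0.13 and -0.10, still below 0. With arrays centred on the members instead, the median of all genes for IL-6 was 0.16, where it was 0.00 as deposited. The poly-A control probe sets, which read RNA added to the samples, were 1.51-fold the untreated level with IL-6 in Caov-3 and 1.56-fold in SKOV-3, and 1.17-fold and 1.02-fold with siltuximab plus IL-6. The part of scaling, added controls and RNA quality in the members' shift was not tested.

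**Figure D4:**
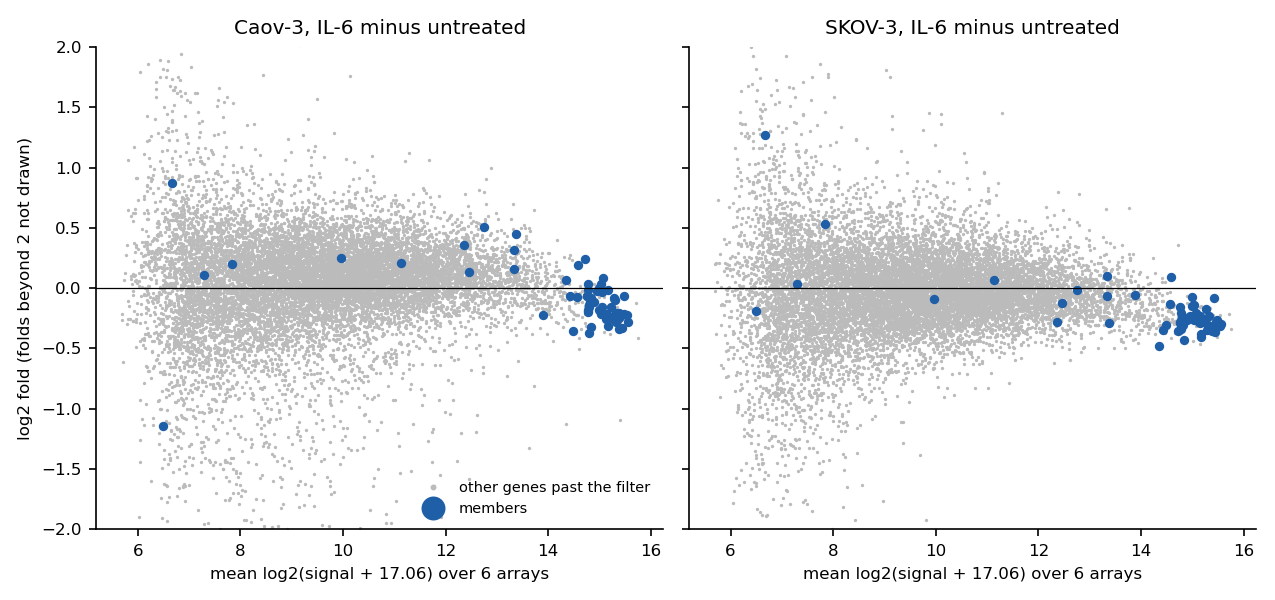
The log2 fold of IL-6 over untreated (vertical axis, 1 array over 1 array) is drawn against the mean log2(signal + 17.06) over 6 arrays for the 60 members and all other genes past the filter, Caov-3 at the left and SKOV-3 at the right. The members sit at the bright end, mostly below 0, with medians of -0.11 in Caov-3 and -0.26 in SKOV-3, among other bright genes that lie below 0 too.

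Siltuximab plus IL-6 gave nearly the same members' signals as IL-6 alone. The median fold on the log2 scale was -0.03 in Caov-3, with 37 of 60 lower (background 62.9%), and -0.01 in SKOV-3, with 34 of 60 lower (background 48%). The folds were narrowly spread, with a robust SD of 0.11 in Caov-3 and 0.07 in SKOV-3, against 0.24 and 0.20 for all genes. The 48 other genes of like signal had narrow folds too, with robust SDs of 0.12 and 0.095. At least 1.2-fold lower than with IL-6 alone were 6 members in Caov-3 (background 20.1%) and 1 in SKOV-3 (background 12.2%). Set against untreated cells, siltuximab plus IL-6 was lower for 49 of 60 in Caov-3 (background 50.6%) and for 51 of 60 in SKOV-3 (background 54.7%), with medians of -0.15 and -0.27. These medians are close to those of IL-6 alone, -0.11 and -0.26, with which they share the untreated arrays. The 57 tested probe sets that name a member with other symbols gave medians for IL-6 of -0.09 in Caov-3 and -0.29 in SKOV-3, near those of the members.

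**Figure D5:**
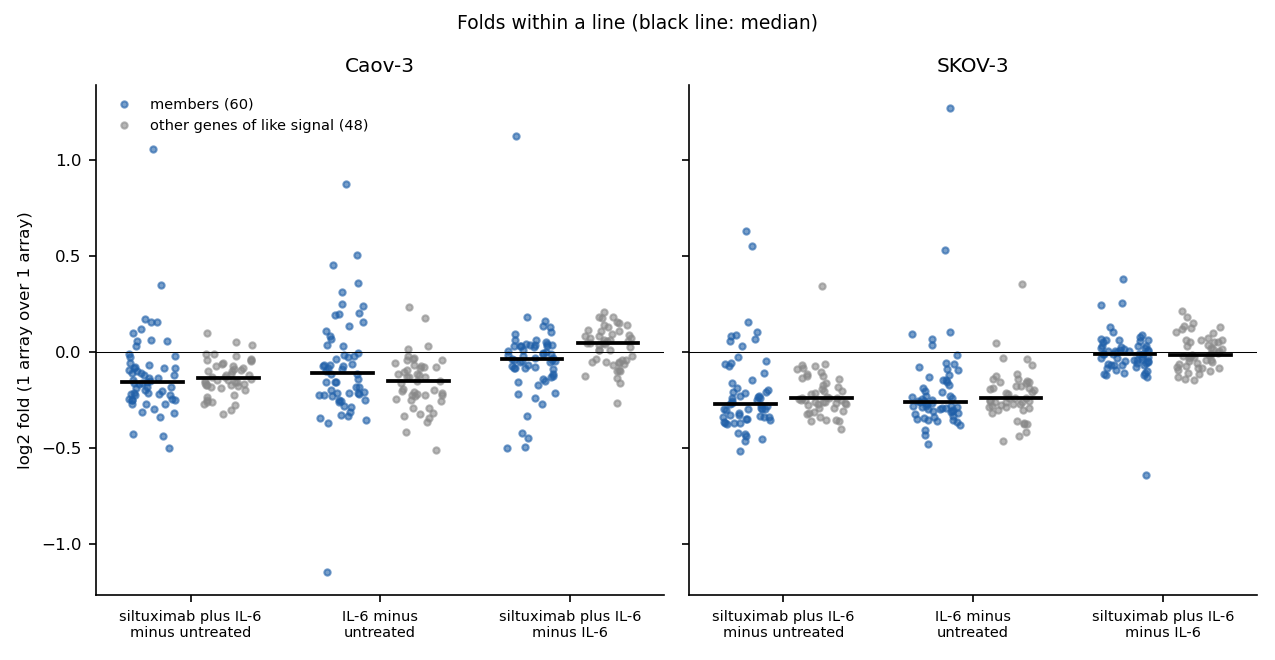
Log2 folds of 1 array over 1 array (vertical axis) are drawn for the 60 members and the 48 other genes of like signal, Caov-3 at the left and SKOV-3 at the right, with a black line at each median. Both gene classes are centred below 0 against untreated cells and near 0 for siltuximab plus IL-6 over IL-6.

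By kind of protein, small subunit genes were below untreated with IL-6 in both lines for 18 of 20, with medians of -0.21 in Caov-3 and -0.26 in SKOV-3. Large subunit genes were below in both for 23 of 30, with medians of -0.09 and -0.29. Lower by the largest amount in both lines, taking the smaller fold of each gene, were RPL41, the shortest ribosomal protein, at -0.34 in both lines, and RPL37A at -0.33 in Caov-3 and -0.36 in SKOV-3. RPL41 gave 43441 with siltuximab plus IL-6, 39464 with IL-6 and 50049.7 untreated in Caov-3, and 36032, 39148 and 49668 in SKOV-3. RPL3 was at -0.32 in Caov-3 and -0.43 in SKOV-3, and RPL8, also near the peptidyl transferase centre, at -0.31 and -0.40. For these 4 the untreated array was the highest in both lines.

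With IL-6, 6 members were higher in SKOV-3, and RPS25, RPL7L1, RPL10L, RPLP2, RPL36A and RPL39L were each higher in Caov-3 too. RPS25, a small subunit protein needed by some internal ribosome entry sites, gave 24864 with siltuximab plus IL-6, 25202 with IL-6 and 22064 untreated in Caov-3, and 25103, 25582 and 23964 in SKOV-3. Its untreated array was the lowest of each line, by log2 folds with IL-6 of 0.19 in Caov-3 and 0.09 in SKOV-3. RPL7L1 had folds of 0.16 and 0.10. RPL10L (0.87 and 1.27) and RPLP2 (0.20 and 0.53) had higher folds, but from dim probe sets. None of these had a p-value within a line.

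The paralogues did not share the lower signals with IL-6 in Caov-3. All 7 were higher there than untreated, where 7378 of all 12290 genes were higher too. Their median fold was 0.31, against -0.11 for the 60 members and 0.07 for all genes. In SKOV-3, 3 of 7 were higher, beside 5286 of 12290 genes. Higher signals with IL-6 in Caov-3 were not particular to the paralogues, as 61 of 75 mitochondrial ribosomal proteins had them. RPL22L1 had a fold of 0.50 in Caov-3 and -0.02 in SKOV-3, RPL36AL 0.31 and -0.06, and RPL39L 0.20 and 0.07. With siltuximab plus IL-6 over the same IL-6 array, RPL22L1 was at -0.45 in Caov-3 and 0.10 in SKOV-3, RPL36AL at -0.21 and -0.04, and RPL39L at -0.27 and 0.03. In Caov-3 the IL-6 array was thus the high one, and both folds use it. The ACTB ratio of that array was the lowest, and its part in these values was not tested.

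For siltuximab plus IL-6 over IL-6, the members with the largest folds of the same sign in both lines, taking the smaller fold of each gene, had small ones apart from the dim RPL26L1-AS1. RPL10A was at -0.07 in both lines, RPL23A, near the exit of the peptide tunnel, at -0.11 in Caov-3 and -0.07 in SKOV-3, RPS15A at -0.06 and -0.11, and RPL24 at -0.05 and -0.11. RPL8 was at 0.04 in Caov-3 and 0.09 in SKOV-3, RPL27A at 0.09 and 0.03 and RPL3 at 0.01 and 0.06. The dim RPL26L1-AS1 was at 1.12 and 0.25, from signals of 40.9 over 9.51 in Caov-3 and 176 over 146 in SKOV-3. RPS6 had folds of -0.12 in Caov-3 and 0.03 in SKOV-3. The bright members among these changed by less than 1.2-fold.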

How the data were processed

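The deposited file holds 1 signal intensity per probe set and array on a linear scale, which the authors made with Affymetrix Expression Console and MAS5, per the submitters' processing notes (versions not given in the sources used here), and which had been scaled by array. No detection calls were used. Members, gene lists and tests were chosen with earlier results of these data known. The array annotation gave 1 symbol to 41091 of 54675 probe sets, and several to 1801. A gene was represented by its probe set of highest mean log2 value, after a pseudocount of 17.06, the 20th percentile of named probe sets. No further normalization was applied. The fit used limma 3.58.1 in R 4.3.3 with line and treatment as factors, a trended prior variance and 2 residual degrees of freedom, and p-values were adjusted over all 12290 genes by Benjamini-Hochberg. The script was tested on simulated data. Robust SD is the scaled median absolute deviation. Promoters are RefSeq's, build GRCh38.p14. Other calculations used Python 3.11.15 with pandas 2.3.3.

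Members were named by rule: the 6 in each direction with the largest called line difference, any called for a treatment, the 4 in each direction with the largest fold shared by both lines, the 5 brightest and 5 dimmest, and a fixed set. Of other lists, the 2 called genes in each direction with the largest line difference were named. The other called members were named to account for all of them. Alternatives were other scalings, pseudocounts, filters, probe set choices, covariates and prior variance, and leaving out each array. The bright non-members were chosen after seeing the data.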

Additional observations from a re-analysis of the deposited data

Results flagged for a closer look

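RPL36 and RPS27L differed from untreated with IL-6 in opposite directions in the lines, each by at least 1.2-fold. RPL36 had a log2 fold of 0.45 in Caov-3 and -0.29 in SKOV-3, and RPS27L 0.36 and -0.28. For siltuximab plus IL-6 over IL-6, RPL36 was at -0.33 in Caov-3 and 0.38 in SKOV-3. RPL36 thus had its highest signal of Caov-3 and its lowest of SKOV-3 on the IL-6 array, which both folds share. Each fold is 1 array over 1 array, so the difference between the lines was not tested.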

How the results depend on the processing

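Of the 31 members called between the lines, RPL18, RPL19, RPL22L1, RPL34 and RPL39L, 5 in all, had a value and a call under every alternative. Another 7 were called wherever they had a value: RPL12, RPL27, RPL29, RPL3, RPL36AL and RPS4X have no probe set without an _x or _s mark, and RPL26L1-AS1 did not pass the stricter filter. Direction was kept by 27 of the 31 wherever a value was had, 17 of which lack one under at least 1 alternative. The number of members higher in Caov-3 was 13 as reported, 25 with arrays centred on the members, 8 with no filter, 4 without the probe sets marked _x_at or _s_at, 7 with no treatment term and 6 with no trend in the prior variance. Without the marked probe sets, 11 initiation factors were lower where 17 had been, the members' median line difference was -0.31, and their median for siltuximab plus IL-6 over untreated in SKOV-3 was -0.055. Fewer probe sets remained there, and the cause was not tested. Under quantile normalization the median differences for IL-6 and for siltuximab plus IL-6 over untreated were 0.026 and 0.010 over both lines. Under cyclic loess they were -0.13 and -0.10. Within lines quantile normalization gave 0.07 for IL-6 in Caov-3, where -0.11 was reported, and -0.011 in SKOV-3, and for siltuximab plus IL-6 over untreated 0.0034 in Caov-3 and 0.024 in SKOV-3. With all probe sets of a gene averaged, RPL37A was at -0.67, RPS19 at -0.25, RPS23 at -0.54 and RPS27 at -0.24 between the lines. With marked probe sets left out, RPL22 was at -0.55, RPL37A at -2.12 and RPS27 at -0.63. Leaving out each array in turn gave 5 to 12 members higher (5 without either siltuximab plus IL-6 array) and 12 to 20 lower (12 without either untreated array). The median line difference ran over -0.01 to 0.08, with 30 to 33 biogenesis factors, 9 to 12 RNA polymerase I genes and 14 to 17 initiation factors lower. The IL-6 median ran over -0.25 to -0.10 with 0 to 2 calls, that of siltuximab plus IL-6 over IL-6 over -0.07 to 0.01 with 0 to 1 calls, and that over untreated from -0.26 to -0.17 with 0 calls. The calls came without the SKOV-3 IL-6 array, where IL-6 rests on Caov-3 alone with 1 residual degree of freedom, and limma called RPL22L1 (0.51, adjusted p = 0.0255) and RPL36 (0.44, adjusted p = 0.0381) for IL-6 and RPL34 (-0.48, adjusted p = 0.0476) for siltuximab plus IL-6 over IL-6. The same fits called 3.71% and 1.70% of 12159 genes. A lone array is there assumed to vary like the others. No paired analysis was possible because the labels give no replicate numbers, apart from the line and treatment terms that the fit already holds. Signal over background limits RPL10L, RPL26L1-AS1, RPL36A and RPLP2.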
